A study of Mus musculus with 20 samples.

Results

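The lysyl oxidase family was followed in the abdominal aorta of 20 mice, 5 in each of 4 groups, whose RNA was sequenced on day 14 of an infusion. The family was defined by name, as Lox and Loxl1 to Loxl4, and all 5 genes were found among the 43422 genes listed for each mouse. WT mice and mice globally lacking Plod1, the gene for lysyl hydroxylase 1 (LH1), received either saline or Ang II (angiotensin II), given at 1000 ng/kg each minute, from osmotic pumps placed under the skin. The labels give every mouse as C57BL/6 and 6 months old. The study's methods give a younger age at pump implantation, the substrain C57Bl/6NCrl, and males only. The knockout was constitutive and not limited to a cell type. Expression is given as FPKM, the number of sequenced fragments per kilobase of gene, scaled to the size of the library, so that levels of different genes can be set side by side.

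Lysyl oxidases are secreted amine oxidases that need copper. They turn lysine and hydroxylysine side chains of collagen, and lysine side chains of elastin, into reactive aldehydes that then join into crosslinks between neighbouring chains. LH1 acts earlier and inside the cell, where it makes the hydroxylysines of the collagen triple helix, so the 2 kinds of enzyme work in sequence on the same matrix. Lox and Loxl1 are made with a propeptide that is cut off outside the cell, and both are needed for the elastic fibres of vessels and other tissues. Loxl2, Loxl3 and Loxl4 carry scavenger receptor cysteine-rich domains in front of the same catalytic domain. Loxl2 is best known for its work on basement membrane collagen, and mice without Lox die around birth with ruptured aortas.

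The catalytic domain is what makes these 5 genes a family, and the stretch that codes for its copper site is shown as its most recognisable part. The coding sequences were taken from GENCODE mouse release 21 (GRCm38), are read 5′ to 3′ with the intron between the 2 exons of each stretch removed, and have the 33 bases of the copper site in capitals within a stretch of 87 bases. Loxl1 is read from exons 3 and 4 at chr9:58293693-58294408 (minus strand), Loxl2 from exons 10 and 11 at chr14:69682289-69689064 (plus strand), Loxl3 from exons 10 and 11 at chr6:83049968-83050152 (plus strand) and Loxl4 from exons 11 and 12 at chr19:42598780-42599926 (minus strand).
Loxl1: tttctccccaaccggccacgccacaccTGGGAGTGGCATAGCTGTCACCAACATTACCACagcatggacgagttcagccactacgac
Loxl2: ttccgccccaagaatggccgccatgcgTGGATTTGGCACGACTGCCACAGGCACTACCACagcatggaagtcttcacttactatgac
Loxl3: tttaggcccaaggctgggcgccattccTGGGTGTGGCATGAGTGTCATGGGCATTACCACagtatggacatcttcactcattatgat
Loxl4: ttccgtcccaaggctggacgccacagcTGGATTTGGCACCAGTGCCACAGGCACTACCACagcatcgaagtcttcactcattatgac

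The copper site of Loxl2 differed from that of Loxl4 at 2 bases and from that of Loxl1 at 11 bases. Loxl3 differed at 8 bases from Loxl1, Loxl2 and Loxl4 alike, so that these few bases do not place it in either branch. Lox, on chromosome 18, differed from Loxl1 at 1 base of the site and from Loxl2 to Loxl4 at 9 to 11 bases. Identity was taken from shortly before the copper site to the end of the coding sequence, a window not set by the borders of the catalytic domain. There, Lox and Loxl1 were 73.1% identical, Loxl2 and Loxl3 71.9%, Loxl2 and Loxl4 70.6%, and Loxl3 and Loxl4 69.5%. Pairs across the 2 branches were 61.9% to 64.4% identical. The longest stretch that any 2 members shared exactly over their transcripts was 32 bases, between Lox and Loxl1. On the genome, Loxl3 shares 535 exon bases with Htra2 on the opposite strand, and the library kit did not keep strand, so some reads of these 2 genes cannot be told apart. Htra2 stood at 8.85 to 19.3 FPKM over the 20 mice, with group means of 12.4 and 13.0 in WT mice under saline and Ang II, and of 11.8 and 16.4 in Plod1-/- mice. The antisense RNA Gm27177, which shares 301 exon bases with Loxl2, did not exceed 0.0360 FPKM.

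Plod1 itself was at 22.8 to 29.7 FPKM in the 10 WT mice and at 0 to 0.0415 FPKM in the 10 Plod1-/- mice, as the genotype labels state. The FPKM values traced back to between 24700000 and 29800000 reads per mouse. Smooth muscle markers were present in every mouse. Among Ang II-treated WT mice, replicate 1 stood apart with the highest summed FPKM of the 8 macrophage markers (1697, against 290.4 to 440.2 in the others) and of the 5 neutrophil markers (192). Among Ang II-treated Plod1-/- mice, replicate 1 stood apart with summed smooth muscle markers of 16992 FPKM, against 2327 to 6205 in the others. Acta2 alone made up 14456 FPKM of this sum. Myh11, at 801 FPKM in this mouse, was also the highest of the group, but below every saline-treated Plod1-/- mouse (1087 to 1522 FPKM). The study used males only, but 2 libraries, saline-treated Plod1-/- replicate 5 and Ang II-treated Plod1-/- replicate 1, held Xist RNA at 15.1 and 7.93 FPKM, against at most 0.0328 FPKM in the others. Results are given with and without these libraries where that changed a call.

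Loxl1, which acts chiefly on elastin, had the highest median level of the family in all 4 groups, and Loxl4 the lowest. In saline-treated WT aortas, mean FPKM was 69.1 ± 23.3 (SD, n = 5) for Loxl1, 35.7 ± 10.5 for Lox, 32.3 ± 5.65 for Loxl3, 6.38 ± 1.70 for Loxl2 and 0.918 ± 0.135 for Loxl4. Loxl1 exceeded Lox in 5 of 5 of these mice although their ranges overlapped, whereas Lox exceeded Loxl3 in 3 of 5, so that the order of these 2 was not settled by the spread between mice. Loxl3 and Loxl2 did not overlap, nor did Loxl2 and Loxl4. In Ang II-treated WT and in saline-treated Plod1-/- mice Loxl3 took the second place before Lox, in 4 of 5 and in 5 of 5 mice, with overlapping ranges. In Ang II-treated Plod1-/- mice Lox stood next to Loxl1, which was the higher of the 2 in 3 of 5 mice, and exceeded Loxl3 in 5 of 5 mice with no overlap. The reads behind these levels ran from 1285 to 38030 per mouse for Lox, 3909 to 18034 for Loxl1, 1674 to 9669 for Loxl3, 466 to 6513 for Loxl2 and 26 to 497 for Loxl4, so Loxl4 in particular rested on few reads. In whole aorta, fewer cells of a type cannot be told apart from less RNA per cell, here and in all results that follow.

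Under saline, the mean FPKM of Lox in Plod1-/- mice was 0.547 of that in WT mice and that of Loxl1 1.47 times, but no member passed the thresholds used throughout (an adjusted p under 0.05 together with a log2 fold change larger than 1 in either direction). Lox stood at 34.2, 47.7, 22.9, 44.8 and 28.7 FPKM in the WT mice and at 13.4, 15.1, 16.6, 28.1 and 24.4 FPKM in the Plod1-/- mice. Of the 5 Plod1-/- mice, 2 lay within the WT range, and the difference was -0.84 on the log2(FPKM + 1) scale (SE 0.24, limma adjusted p = 0.0601). Loxl1 differed in the other direction, with 47.2, 94.2, 47.8, 92.9 and 63.1 FPKM in WT and 57.4, 96.0, 114.5, 136.0 and 103.8 FPKM in Plod1-/- mice. Its groups overlapped as well (log2 difference 0.56, SE 0.26, limma adjusted p = 0.196). Loxl2 (log2 difference 0.09, SE 0.15) and Loxl3 (-0.02, SE 0.12) had limma adjusted p-values of 0.725 and 0.930, and the sign of Loxl3 turned when WT replicate 4 (0.058), WT replicate 5 (0.019) or Plod1-/- replicate 3 (0.024) was left out. Loxl4 was too low in both groups for the fit and was compared alone, at 1.01, 0.948, 0.691, 1.03 and 0.912 FPKM in WT and 0.708, 0.647, 0.597, 0.433 and 0.771 FPKM in Plod1-/- mice. It was lower in the Plod1-/- mice by a mean of 0.23 on the log2 scale, less than the difference required for a call (two-sided exact permutation test, p = 0.0238, or 0.0317 after Benjamini-Hochberg adjustment over 4 comparisons of this gene). Of all 11999 genes tested in this comparison 0.767% were called (0.358% higher and 0.408% lower), against 0 of the 4 members fitted. Groups did not overlap for 9.52% of these genes, against 0 of the 5 members.

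In WT aortas Ang II did not raise any member. All 5 differences were below 0 with every mouse included, and the largest was that of Lox, the founding enzyme of the family. Its 5 Ang II-treated WT mice stood at 41.5, 9.48, 11.9, 21.3 and 12.9 FPKM, against 22.9 to 47.7 FPKM under saline. Apart from replicate 1, these mice lay below all of the saline-treated ones. The log2 fold change of Lox was -0.99 (SE 0.35, limma adjusted p = 0.0433), just short of the fold required, and without replicate 1 of the Ang II-treated WT group it was -1.31 (adjusted p = 0.00595), which passed. It also passed without saline-treated WT replicate 3 (-1.14) or Ang II-treated WT replicate 4 (-1.08). Ang II-treated WT replicate 1 held the raised macrophage and neutrophil markers, and their part in its Lox level was not tested. Over the WT mice, 3 of 8 smooth muscle markers were also called lower with Ang II (median log2 fold change -0.89, all 8 below 0), and mitochondrial genes took 23.3% ± 5.78 of the summed FPKM, against 11.1% ± 2.94 under saline. Leaving out the mitochondrial genes and rescaling the rest changed no call of a member in this comparison. The part of the smooth muscle markers in the Lox difference was not tested.

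Loxl3 went from 24.9, 29.8, 31.5, 39.7 and 35.6 FPKM under saline to 33.3, 16.6, 19.4, 26.4 and 14.7 FPKM under Ang II in WT mice, with overlapping groups (log2 fold change -0.57, SE 0.21, limma adjusted p = 0.0516). Loxl1 stood at 88.4, 80.9, 61.1, 41.3 and 53.0 FPKM under Ang II, so that all but replicate 4 lay within the range of its saline group (-0.08, SE 0.26, limma adjusted p = 0.826). The sign turned without saline-treated replicate 2 (0.052) or 4 (0.047) or Ang II-treated replicate 4 (0.072). Loxl2 was at 7.33, 3.06, 4.48, 6.26 and 4.87 FPKM, against 8.64, 7.53, 4.98, 6.16 and 4.61 FPKM under saline (-0.26, SE 0.21, adjusted p = 0.320). Loxl4 fell below the filter, at 1.04, 0.311, 0.383, 0.687 and 0.250 FPKM under Ang II, and did not pass the exact permutation test (mean log2 difference -0.34, two-sided p = 0.0794), although it did without replicate 1 (-0.45, two-sided exact permutation p = 0.00794). Here 8.66% of 11994 genes were called, 6.38% as higher and 2.28% as lower, and 17.3% had groups that did not overlap, as no member did.

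**Figure D1:**
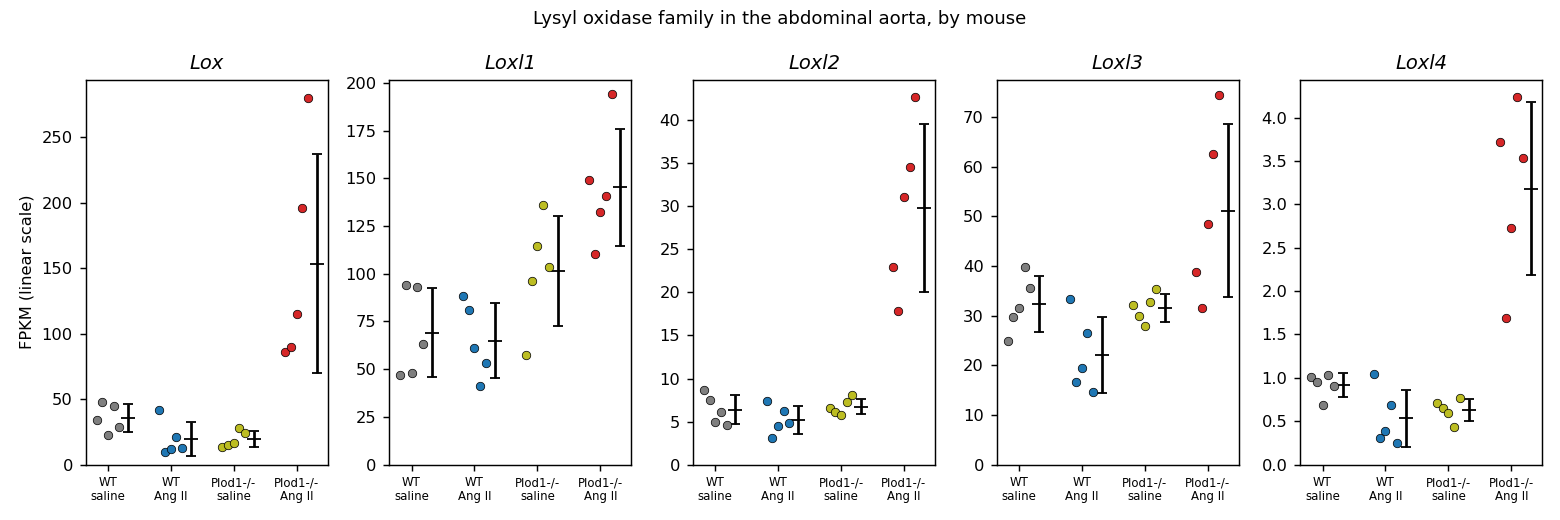
FPKM of the 5 lysyl oxidase genes (vertical axes, linear, each gene on its own scale from 0) in each mouse, by group (horizontal axis). Each point is a mouse, and the bar beside the points is the mean ± SD (n = 5). All 5 Ang II-treated Plod1-/- mice exceed every other mouse for Lox, Loxl2 and Loxl4, with Lox at 86.2 to 280.4 FPKM there.

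In Plod1-/- aortas Ang II raised Lox, Loxl2 and Loxl4, whereas Loxl1 and Loxl3 did not pass the thresholds. Lox went from 13.4 to 28.1 FPKM under saline to 86.2, 89.9, 115, 196 and 280.4 FPKM under Ang II, a ratio of the means of 7.86. The lowest Ang II-treated mouse was above the highest saline-treated one, and on the log2 scale the difference was 2.81 (SE 0.34, limma adjusted p = 1.66e-04). Loxl2 went from 6.61, 6.06, 5.78, 7.23 and 8.05 FPKM to 23.0, 17.8, 31.1, 34.6 and 42.7 FPKM, a ratio of 4.42 (log2 fold change 1.94, SE 0.21, limma adjusted p = 8.87e-05). These groups did not overlap either.

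Loxl4 reached 3.72, 1.69, 2.73, 4.24 and 3.54 FPKM in the Ang II-treated Plod1-/- mice, from 0.433 to 0.771 FPKM under saline, a ratio of 5.04. It stayed the least expressed member even so. Its log2 fold change was 1.32 on the log2(FPKM + 1) scale, which understates the change of so low a gene (SE 0.17, limma adjusted p = 2.05e-04). Loxl4 passed the filter only because of this high group, and alone it gave a two-sided exact permutation p of 0.00794, the smallest possible with 5 mice against 5, or 0.0159 after adjustment over its 4 comparisons. Without both libraries with Xist RNA, or without any single Ang II-treated Plod1-/- mouse, it fell below the filter and could not be fitted.

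Loxl3 stood at 38.9, 31.5, 48.5, 62.5 and 74.5 FPKM under Ang II and at 32.2, 29.9, 27.8, 32.7 and 35.3 FPKM under saline in Plod1-/- mice. Replicate 2 of the treated mice lay within the saline range, and the adjusted p of 0.0345 came with a log2 fold change of 0.62 (SE 0.21), below the size required. Loxl1 was at 149, 110.5, 132, 141 and 194 FPKM, again overlapping its saline group (log2 fold change 0.54, SE 0.23, limma adjusted p = 0.0757). Of the 12333 genes tested, 8.38% were called higher and 5.51% lower, and 14.2% lay higher with no overlap, as did Lox, Loxl2 and Loxl4.

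Set against Ang II-treated WT mice, the Ang II-treated Plod1-/- mice were higher for each of the 5 members. The ratio of the mean FPKM was 7.91 for Lox, 5.96 for Loxl4, 5.74 for Loxl2, 2.32 for Loxl3 and 2.24 for Loxl1. The log2 differences were 2.96 (SE 0.43, limma adjusted p = 0.00175) for Lox, 2.30 (SE 0.25, adjusted p = 6.47e-04) for Loxl2, 1.43 (SE 0.20, adjusted p = 0.00157) for Loxl4, 1.18 (SE 0.23, adjusted p = 0.00522) for Loxl1 and 1.17 (SE 0.27, adjusted p = 0.0107) for Loxl3. The groups did not overlap for Lox, Loxl1, Loxl2 and Loxl4. For Loxl3, replicate 2 of the Plod1-/- mice, at 31.5 FPKM, lay below replicate 1 of the WT mice, at 33.3 FPKM. Loxl4 was tested here, too, only because the Plod1-/- group passed the filter. In this comparison 7.45% of 12356 genes were called higher and 3.67% lower, and 10.4% lay higher with no overlap. Leaving out replicate 1 of either group left every member called, with log2 differences of Lox of 3.13 to 3.28. Of the libraries with Xist RNA, only Plod1-/- replicate 1 is in this comparison, so leaving them out is the same fit as leaving out that mouse. The Ang II-treated WT mice are shared with the comparison in WT, and the Ang II-treated Plod1-/- mice with the comparison in Plod1-/- mice, so these results are not independent of each other.

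The difference between the 2 responses to Ang II was tested directly on all 20 mice. Lox responded more in Plod1-/- than in WT mice by 3.80 on the log2 scale (SE 0.52, limma adjusted p = 6.57e-05), and Loxl2 by 2.20 (SE 0.31, adjusted p = 7.57e-05). For Loxl3 the difference was 1.19 (SE 0.31, adjusted p = 0.00658). Loxl4 gave 1.67 (SE 0.23, adjusted p = 6.26e-05), and it passed the filter here as well only through the Ang II-treated Plod1-/- group. For Loxl1 the difference was 0.62 (SE 0.36, adjusted p = 0.183), which did not pass. Of 13263 genes tested, 9.69% were called higher in this contrast. Neither Ang II against saline within Plod1-/- mice nor LH1 loss under saline moved Loxl1 past the thresholds, while its higher level in Ang II-treated Plod1-/- than in Ang II-treated WT mice did pass.

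**Figure D2:**
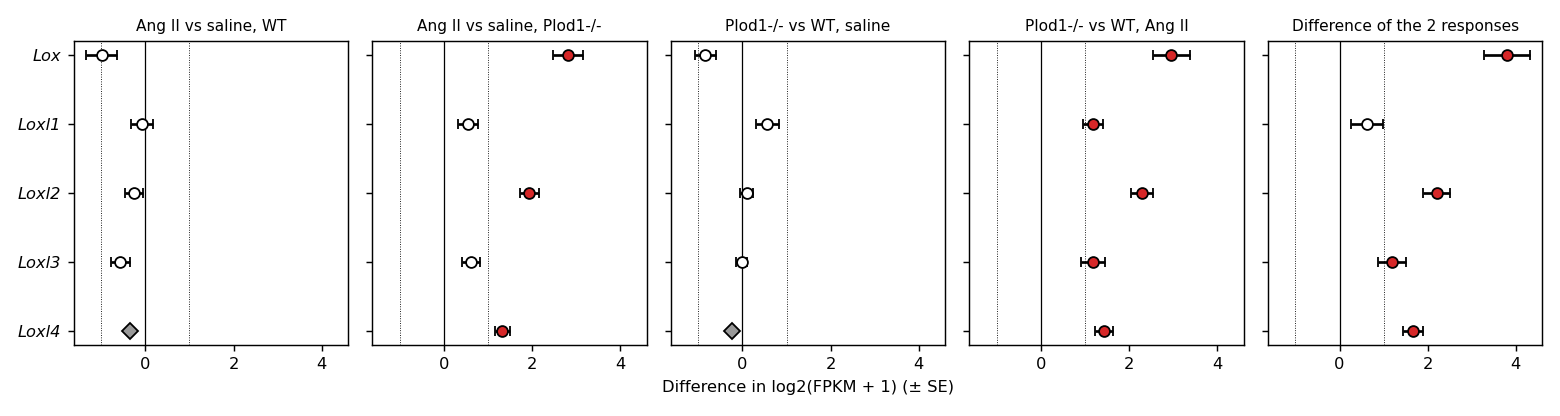
Differences in log2(FPKM + 1) with SE (horizontal axes) for the 5 lysyl oxidase genes in the 4 comparisons and in the difference of the 2 Ang II responses. Red points passed an adjusted p of 0.05 with a difference above 1 in size (dotted lines), white points did not, and grey diamonds without SE are Loxl4 where it lay below the filter. Lox has the largest positive difference under Ang II (2.96) and also the most negative in WT (-0.99).

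The makeup of the family shifted along with its total. The summed FPKM of the 5 genes had a median of 133 under saline and 97.3 under Ang II in WT mice. In Plod1-/- mice the medians were 165 and 329, and the Ang II-treated mice ran from 251 to 595. Lox made up 21.2% to 29.5% of this sum in saline-treated WT mice and 8.59% to 24.2% in Ang II-treated WT mice. Its share was 10.1% to 14.2% in saline-treated Plod1-/- mice, below every saline-treated WT mouse, and 28.7% to 47.1% in Ang II-treated Plod1-/- mice. The share of Loxl1 moved the other way between the Plod1-/- groups, from 52.1% to 69.3% under saline to 32.1% to 49.5% under Ang II, although its level was not lower. Loxl3 took 16.0% to 29.2% under saline and 12.5% to 14.7% under Ang II in Plod1-/- mice, and Loxl2 3.49% to 5.99% and 7.09% to 9.43%. Loxl4 stayed between 0.212% and 1.24% of the sum in all 20 mice. Shares and sums are a description and were not tested.

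**Figure D3:**
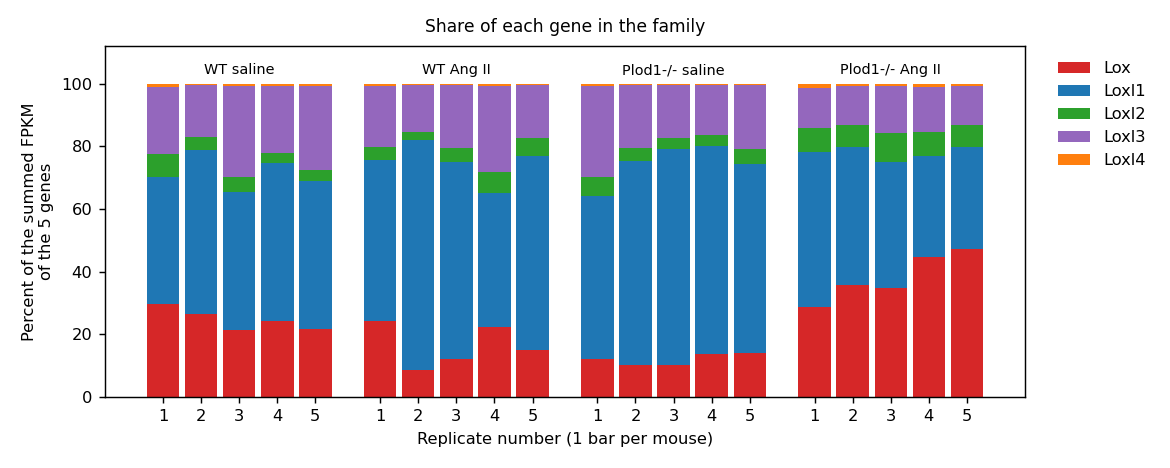
Share of each lysyl oxidase gene in the summed FPKM of the 5 genes (vertical axis, percent), with a bar for each mouse, ordered by group and replicate number. Lox (red) takes 28.7% to 47.1% in Ang II-treated Plod1-/- mice and 10.1% to 14.2% in saline-treated Plod1-/- mice.

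The members also differed in how alike their patterns were over the 20 mice. Values were standardized for each gene, and likeness was measured as the root mean square difference, which is 0 for identical patterns and about 1.38 for unrelated ones. Among the members, Loxl2 and Loxl4 were closest (0.327), followed by Lox and Loxl2 (0.357) and Lox and Loxl4 (0.362). Genes outside the family were nearer still. Of 13262 genes compared, Loxl4 ranked 25 in likeness to Loxl2, Loxl2 ranked 34 in likeness to Lox, and Loxl4 ranked 43. Loxl4 passed the filter here, too, only through the Ang II-treated Plod1-/- group. Loxl1 stood farthest from the others, at 0.753 to 0.815, including 0.782 from Lox, the member most like it in the part of the coding sequence compared. Lox, Loxl2 and Loxl4 have their high values in the same group. After the group means were removed, the differences of these 3 pairs were 0.794, 0.565 and 0.855. Lox and Loxl3 (0.621) and Loxl3 and Loxl4 (0.714) were then closer than Loxl2 and Loxl4. Lox was then the member nearest to Loxl1 (0.960), against 1.12 to 1.25 for the other members.

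Of 13262 genes compared, those most like Lox over the 20 mice were Il1r1 (0.180), a receptor for interleukin-1, and the fibrillar collagen genes Col5a2 (0.237) and Col3a1 (0.243). Il1r1 went from 6.53 ± 0.885 FPKM in saline-treated to 17.7 ± 6.05 FPKM in Ang II-treated Plod1-/- mice, against 8.98 ± 1.76 and 6.22 ± 2.69 FPKM in the WT groups. Loxl2 was most like Haus7 (0.240), Ppic (0.255), which encodes a peptidyl-prolyl isomerase, and again Col3a1 (0.270). For Loxl3 the nearest genes were Trim35 (0.317), Cd276 (0.348) and Tmem164 (0.359). For Loxl1 the nearest genes over all 20 mice were farther off, namely Vat1 (0.416), the cytoskeletal linker gene Plec (0.446) and the basement membrane collagen gene Col4a1 (0.448). Within groups the 3 nearest genes of Lox kept differences of 0.298 to 0.353, those of Loxl3 0.473 to 0.595 and those of Loxl1 0.622 to 0.662. For Loxl2 they were 0.501 for Col3a1, 0.522 for Ppic and 0.728 for Haus7, which was less alike within groups than any of the 3 neighbours of Loxl1. These likenesses are descriptions over mice of 4 groups.

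**Figure D4:**
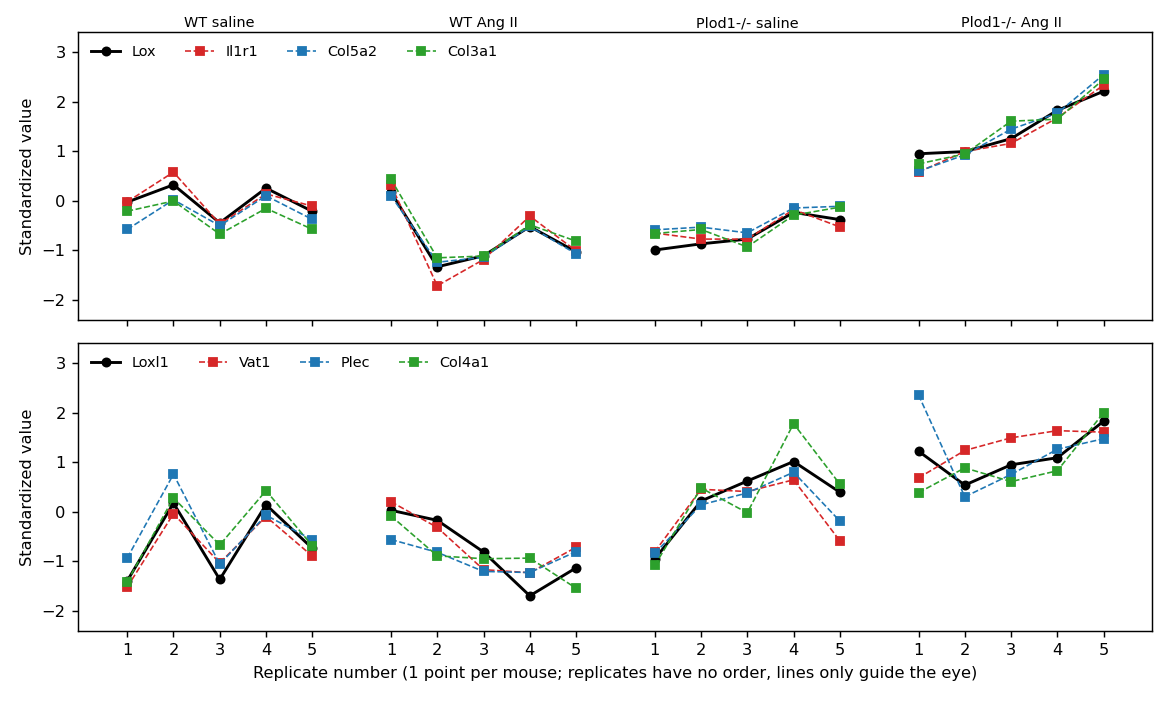
Standardized values (vertical axis, SD units over the 20 mice) of Lox with its 3 most alike genes (upper panel) and of Loxl1 with its own (lower panel), by group and replicate number. The 4 lines of the upper panel run close together in all groups (root mean square differences of 0.180 to 0.243), those of the lower panel less so (0.416 to 0.448).

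The other genes of the crosslinking pathway were described by lists set up by role, 41 genes in all. The lists were chosen with earlier results of these data known and include Thbs1, which the study had reported as raised. Their counts and medians are therefore descriptions and not a test of the pathway. In Plod1-/- mice Ang II raised 9 and lowered 4 of the 34 genes that could be tested, where 8.38% of all genes tested were called higher and 5.51% lower. Between Ang II-treated Plod1-/- and WT mice, 14 of 35 were higher and 3 lower, against 7.45% and 3.67% of all genes. Those lower were Pcsk6, Ltbp4 and Plod1, the last of which is the deleted gene. In WT mice Ang II raised 0 and lowered 3 of 35, namely Pcolce2, Postn and Mfap4, against 6.38% and 2.28% of all genes. Under saline the Plod1-/- mice had 0 higher and 2 of 35 lower, Pcolce2 and the deleted Plod1, against 0.358% and 0.408%. The median log2 difference of the tested pathway genes was 0.71 between Ang II-treated Plod1-/- and WT mice, against 0.12 for all genes tested, and -0.49 for Ang II in WT mice, against -0.14.

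The substrates of the enzymes had the highest median log2 difference of the 6 lists in both comparisons with Ang II-treated Plod1-/- mice, at 1.86 against saline and 2.25 against WT. In WT mice under Ang II 0 of 8 were called (median -0.42). Of 8 collagen and elastin genes, Col1a1, Col1a2, Col3a1, Col5a1 and Col5a2, which make the fibrillar collagens of the vessel wall, rose under Ang II in Plod1-/- mice. Col1a1 went from 96.9 ± 29.5 to 1217 ± 1095 FPKM (log2 fold change 3.27, SE 0.51, limma adjusted p = 6.30e-04). In Ang II-treated WT mice it stood at 93.4 ± 53.0 FPKM. Eln, the elastin gene, was called, among the 4 comparisons, in that of the Ang II-treated groups only, with 391 ± 199 FPKM in Plod1-/- and 99.1 ± 28.6 FPKM in WT mice (log2 difference 1.87, SE 0.34, adjusted p = 0.00413). The basement membrane genes Col4a1 and Col4a2 were called in none of the 4 comparisons.

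Genes for the processing and activity of the enzymes were mixed. Bmp1, the protease that removes the propeptide of Lox, was higher in Ang II-treated Plod1-/- mice at 104 ± 44.6 FPKM, against 46.6 ± 11.9 in Ang II-treated WT mice (log2 difference 1.05, SE 0.30, limma adjusted p = 0.0249). Its groups overlapped. Postn, for periostin, which binds both Bmp1 and collagen, was higher in the same comparison, and Thbs1, for thrombospondin-1, had the largest increase of the whole pathway there (4.21, SE 0.34, adjusted p = 1.54e-04). Pcsk6, for a secreted proprotein convertase, was lower instead, at 4.68 ± 2.11 FPKM against 14.4 ± 3.80 FPKM (log2 difference -1.47, SE 0.26, adjusted p = 0.00401).

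The elastic fibre scaffold split as well. Fbn1 and Mfap5, for the microfibril proteins fibrillin-1 and MAGP-2, rose under Ang II in Plod1-/- mice, and Fbln5 and Ltbp4, which guide elastin onto microfibrils, fell. Fbln5, for fibulin-5, a protein that also binds Loxl1, ended at 31.1 ± 7.59 FPKM, a ratio of the means of 0.311 (log2 fold change -1.66, SE 0.18, limma adjusted p = 1.06e-04). In WT mice it went from 94.1 ± 18.7 to 53.4 ± 21.6 FPKM with Ang II, short of the fold required (-0.86, SE 0.22, limma adjusted p = 0.0148). Fbln5 was not called between the Ang II-treated groups. Efemp2, for fibulin-4, which brings Lox to elastin, was at -0.06 (SE 0.18, adjusted p = 0.820) for Ang II in Plod1-/- mice.

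Of the genes for copper supply, Slc31a1, the importer that takes copper into the cell, rose from 3.58 ± 0.533 to 20.1 ± 8.38 FPKM with Ang II in Plod1-/- mice (log2 fold change 2.09, SE 0.29, limma adjusted p = 3.18e-04). Atp7a, which loads copper into lysyl oxidases in the secretory pathway, lay below the filter in every comparison. Among the genes that act on lysine ahead of the lysyl oxidases, Plod2, for the hydroxylase of collagen telopeptides, and Fkbp10, for its partner FKBP65, were higher in Ang II-treated Plod1-/- than in Ang II-treated WT mice. Plod2 stood at 19.6 ± 8.68 against 8.14 ± 4.37 FPKM (log2 difference 1.18, SE 0.35, adjusted p = 0.0260). Aoc3, another copper amine oxidase, anchored in the membrane of smooth muscle and other cells and outside the family, fell from 107 ± 19.2 to 42.8 ± 4.61 FPKM under Ang II in Plod1-/- mice (log2 fold change -1.29, SE 0.14, adjusted p = 9.89e-05).

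**Figure D5:**
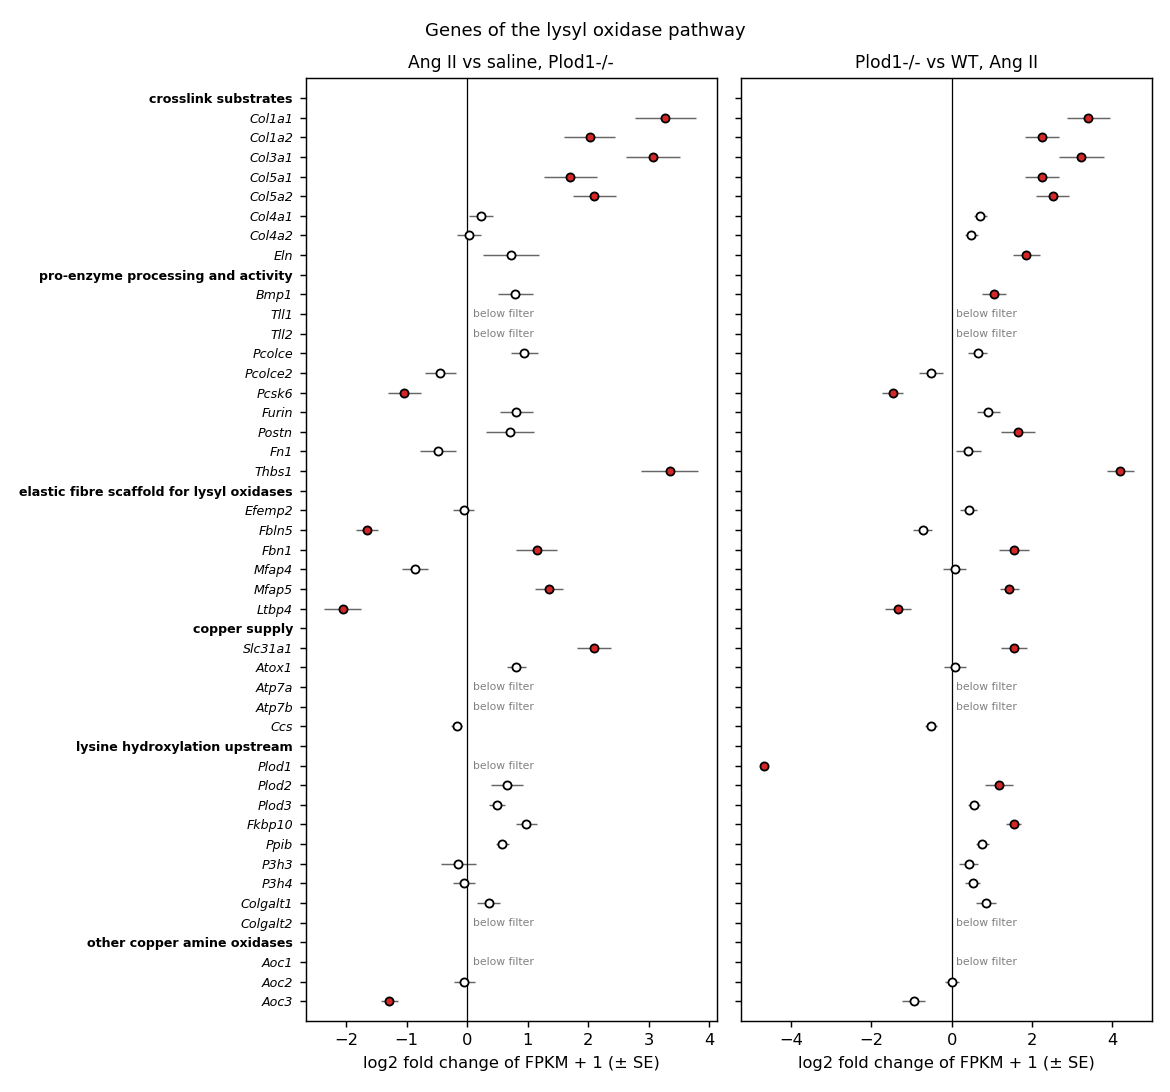
Log2 fold changes of FPKM + 1 with SE (horizontal axes) of the 41 pathway genes by role, those below the filter marked as such, for Ang II against saline in Plod1-/- mice (left) and Plod1-/- against WT mice under Ang II (right). Red points passed the thresholds and white points did not. The fibrillar collagen genes lie between 1.71 and 3.41 in both panels, while Ltbp4 lies at -2.05 and -1.34.

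Markers of other cells also differed between the groups. Between Ang II-treated Plod1-/- and WT mice 8 of 8 macrophage, 5 of 5 neutrophil and 5 of 5 red blood cell markers were called higher, and 2 of 8 smooth muscle, 3 of 8 fat cell and 2 of 4 tested skeletal muscle markers (Acta1 and Tcap) lower. In saline-treated WT mice Tcap had a mean of 332 FPKM, against 0.897 for Ckm and 0.0382 for Myh4. Its call can therefore not be read as one of skeletal muscle. In WT mice Ang II raised 2 of 4 tested skeletal muscle markers, with overlapping groups. Acta1 went from a mean of 1.05 to 67.5 FPKM and Tnnt3 from 1.51 to 30.8 FPKM. Ckm and Myh4 stood at means of 8.32 and 9.23 FPKM in these Ang II-treated WT mice. Under Ang II in Plod1-/- mice, where Lox, Loxl2 and Loxl4 rose, the same macrophage, neutrophil and red blood cell counts were called higher and 6 of 8 smooth muscle markers lower (median log2 fold change -1.73). The summed macrophage markers ran from 817 to 4587 FPKM in Ang II-treated Plod1-/- mice and from 290.4 to 1697 FPKM in the WT mice given Ang II, and from 84.6 to 368 and from 177 to 319 FPKM in the corresponding saline groups. The summed smooth muscle markers ran from 2327 to 16992, 5532 to 17074, 15081 to 20757 and 14151 to 20490 FPKM in the same order, and the 7 fibroblast markers from 516 to 1080, 616 to 967, 341 to 817 and 754 to 1176 FPKM. No macrophage, smooth muscle or fibroblast marker was below 0.1 FPKM in every mouse of a group. In WT mice Ang II raised 7 of 7 tested fat cell markers, whose sum went from 129 to 754 FPKM to 1439 to 7118 FPKM. In Plod1-/- mice it raised 3 of 8, Adipoq, Fabp4 and Cfd, and the sum went from 229 to 2221.5 FPKM to 913 to 6229 FPKM. In both genotypes Ang II raised 2 of 6 endothelial markers, Cdh5 and Emcn. The part of these cells in the levels of the lysyl oxidases was not tested. Within the Ang II-treated Plod1-/- group, replicate 1 had the highest smooth muscle and the lowest macrophage markers (817 FPKM). Its Lox, at 86.2 FPKM, was the lowest of that group, while its Loxl2 stood at 23.0 and its Loxl4 at 3.72 FPKM. The fibroblast markers of this mouse (516 FPKM) and its endothelial markers (41.5 FPKM) were also the lowest of the group. Replicate 5 had the highest Lox of that group (280.4 FPKM). Its macrophage markers, at 2236 FPKM, were below those of replicates 2 to 4 (2652 to 4587 FPKM). Its fibroblast markers, at 1080 FPKM, were the highest of the group. In Ang II-treated WT replicate 1, with the highest macrophage markers of its group (1697 FPKM), Lox was at 41.5, Loxl2 at 7.33 and Loxl4 at 1.04 FPKM, the highest of that group for each. The fibroblast markers of this mouse (967 FPKM) were also the highest of its group.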

How the data were processed

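Total RNA of the abdominal aorta of 20 mice was sequenced by the study. The authors deposited FPKM for each Ensembl gene, described as made with HISAT2, stringtie, cuffquant and cuffnorm. The submitters' processing notes name HISAT2 2.1.0, Bowtie2 2.2.3, HTSeq 0.6.0 and the build mm10. The FPKM were whole reads over the union exon length in GENCODE M21 and the library size for 88.5% to 90.5% of the values above 0 in a library (tolerance 0.01 reads), which put the depth at 24700000 to 29800000 reads. Groups were taken from the labels.

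FPKM were transformed as log2(FPKM + 1). Genes at 1 FPKM or more in at least 5 mice were fitted with limma 3.58.1 (R 4.3.3, eBayes with trend), with the 10 mice of each comparison, or all 20 for the difference of the 2 responses. Genes were called at a Benjamini-Hochberg adjusted p below 0.05 over all genes tested with a log2 fold change larger than 1 in either direction. Because the values are FPKM, the count test named by the authors was not used. A member below the filter was compared with a two-sided exact permutation test. The method was tested on simulated data. Sequences were read with Biopython 1.88. Each sample is taken as a separate mouse, as the study describes. The members and gene lists were chosen with earlier results of these data known. The genes named are all members, the pathway genes called in the comparison described with Plod1 and some uncalled ones picked after their values were seen, and the 3 genes most alike to each member that passes the filter over all 20 mice. Alternatives included another pseudocount, no filter, quantile normalization, rescaling without mitochondrial genes, mouse weights, the replicate number as a block, and leaving out mice. No 2 libraries held identical values. Replicate numbers did not pair the mice: deviations of same-numbered mice correlated at -0.372 to 0.434.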

Additional observations from a re-analysis of the deposited data

Results flagged for a closer look

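For 4 of the 5 members the effect of Ang II differed between the genotypes by a test of the difference itself (limma on all 20 mice). On the log2(FPKM + 1) scale the response was greater in Plod1-/- than in WT mice by 3.80 for Lox, 2.20 for Loxl2, 1.67 for Loxl4 and 1.19 for Loxl3. Loxl4 was tested only because the Ang II-treated Plod1-/- group took it past the filter, and 9.69% of all genes tested were called higher in this contrast. The part of the macrophage, neutrophil and smooth muscle markers, which also differed, was not tested. No member had a mouse that stood apart from its group by Dixon's rule.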

How the results depend on the processing

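In the comparison of Ang II-treated Plod1-/- and WT mice all 5 members stayed called under each of the 10 alternatives and with each mouse left out, and 4 stayed called in the difference of the 2 responses. In that comparison the alternative without the libraries with Xist RNA is the same fit as leaving out Ang II-treated Plod1-/- replicate 1. Lox was called lower with Ang II in WT mice (1 member in place of 0) with the adjusted p alone, a pseudocount of 0.1 and weights per mouse, and in 0 to 1 members with a mouse left out. Leaving out a mouse moved Loxl1 in WT from -0.20 to 0.072 and Loxl3 between the saline groups from -0.11 to 0.058. Loxl4 fell below the filter in the Plod1-/- response when an Ang II-treated Plod1-/- mouse was left out, which lowered the members called there from 3 to 2. Without the fold threshold the genes called higher and lower were 1985 and 2575 (Ang II in WT), 2934 and 2474 (Ang II in Plod1-/-), 399 and 387 (genotype under saline), 2569 and 1280 (genotype under Ang II), and 3150 and 1867 (difference of responses). Genes lower with Ang II in WT numbered 463 with a pseudocount of 0.1 and 502 with weights (274 as reported), and 202 to 487 with a mouse left out. Weights gave 1387 higher and 747 lower for genotype under Ang II, and leaving out a mouse 300 to 581 lower. For genotype under saline (43 higher and 49 lower as reported), 81 were higher with a pseudocount of 0.1, and 25 higher and 16 lower without the filter. A fit of all 4 groups gave 24 higher. Without saline-treated Plod1-/- replicate 5, the only library with Xist RNA in that comparison, 26 were lower. With any mouse left out 18 to 69 were higher and 14 to 64 lower. With the replicate number as a block 23 were lower there, and no call of a member changed. Quantile normalization moved the median difference of all genes from 0.12 to -0.03 for genotype under Ang II, from 0.05 to -0.06 for Ang II in Plod1-/- and from 0.12 to -0.01 for the difference of responses, and changed no call of a member. The causes of these shifts were not tested. The 5 mice of a group limit all comparisons, and Loxl4, at 26 to 497 reads, most of all.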
